A study of Mus musculus with 13 samples.

Results

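The urea cycle and ammonia handling genes are 10 genes of liver nitrogen disposal: Cps1, Otc, Ass1, Asl and Arg1, Nags, the carriers Slc25a15 and Slc25a13, and the glutamate and glutamine enzymes Glud1 and Gls2. Members were the array's non-control probes that carry one of these names or an older synonym of it, which gave 14 probes for 10 genes, out of 41174 probes and 20403 genes tested in all. The RNA is from livers of 13 male mice on the C57BL/6 background, which had a western-style diet high in fat for 5 months. There were 5 TAKI mice (the SIRT1 TA knock-in allele), 3 TEKI mice (the SIRT1 TE knock-in allele) and 5 WT mice (WT SIRT1). Per the title, the study is about phosphorylation of threonine 522 of SIRT1, a deacetylase that depends on NAD; TA puts alanine in its place, which cannot be phosphorylated, and TE puts glutamate there, whose charge mimics a phosphate. A knock-in allele is not restricted to hepatocytes, and all 3 genotypes shared the diet, so no comparison concerns the diet itself. Each array was 1 mouse, and p-values measure the spread between mice.

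The urea cycle turns toxic ammonia into urea in periportal hepatocytes, partly in mitochondria and partly in the cytosol. Carbamoyl phosphate made by CPS1 enters the cycle through OTC, citrulline leaves the mitochondrion, and argininosuccinate synthetase, argininosuccinate lyase and arginase complete the turn. Ammonia reaches the cycle from glutamine through liver glutaminase and from glutamate through glutamate dehydrogenase, and ammonia that escapes it is bound into glutamine by glutamine synthetase around the central vein. Sirtuins are known to act on several of these enzymes as proteins, which an RNA array does not measure.

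The array measures each gene with 60-base probes, some of which are shown because they state which part of the message was read. Coordinates are those of the scanner files, build mm7, and every sequence is written 5′ to 3′ in the sense of the message. For Ass1 the array has a pair of neighbouring probes on the plus strand, and the capitals mark the 20 bases that both contain.
Ass1 at chr2:31526070-31527709: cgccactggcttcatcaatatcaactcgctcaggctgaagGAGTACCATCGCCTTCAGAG
Ass1 at chr2:31527690-31527748: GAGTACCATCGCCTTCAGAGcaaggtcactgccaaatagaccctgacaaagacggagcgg
Otc at chrX:8709867-8733514, plus strand: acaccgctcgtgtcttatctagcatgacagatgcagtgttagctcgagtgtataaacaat
Asl at chr5:129249917-129250502, minus strand: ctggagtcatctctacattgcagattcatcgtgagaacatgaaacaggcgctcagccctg
Arg1 at chr10:24669046-24669105, minus strand: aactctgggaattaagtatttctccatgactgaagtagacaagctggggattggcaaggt
The first Ass1 probe, this Otc probe and the Asl probe span more of the genome than their 60 bases, so these 3 of the 14 probes cross an intron and read spliced RNA.

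All 14 probes were well above background on 13 of 13 arrays, saturated on 0 arrays, and none had a spot left out. Levels are log2 intensities minus the 75th percentile of the array, so a level of 6 is 6 doublings above that percentile, and levels of different probes are not compared. Between 60.5% and 73.1% of spots were well above background on 12 arrays, and 86.8% on that of TEKI replicate 1. The arrays lay on 5 slides: TAKI mice had slides of their own, so that for TAKI the slide cannot be told apart from the genotype, while 1 slide held the 3 TEKI mice with WT replicate 5. Hepatocyte markers were high in every liver, with Alb saturated on 13 arrays, Ahsg on 5, and Apoa2 and Fgb on 1 each. The summed linear level of 8 such markers, which holds these capped signals, was 2737 to 3766 in TAKI, 3523 to 4611 in TEKI and 3104 to 4275 in WT. Sirt1 RNA averaged 0.38 ± 0.23 in TAKI, 0.30 ± 0.25 in TEKI and 0.39 ± 0.12 in WT (log2 level, SD, n = 5, 3 and 5), which does not check the genotypes, since the alleles change a codon and not the amount of RNA read by the probe.

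None of the 10 genes passed the test for a difference between genotypes against the spread between mice. With limma over all genes and Benjamini-Hochberg adjustment, 0 of 10 passed an adjusted p of 0.05 for TAKI minus WT, where 2.82% of all genes did, 0 of 10 for TEKI minus WT (0.00490% of all genes) and 0 of 10 for TEKI minus TAKI (3.44%). At an unadjusted p under 0.05 the counts were also 0 of 10 in each comparison, against 14.7%, 11.6% and 12.1% of all genes. The genes called in both comparisons with TAKI followed the row of their spot, of 532 on the array. Rows 1 to 266 hold 50.8% of all genes. They hold 375 of 384 called higher and 5 of 192 called lower for TAKI minus WT. For TEKI minus TAKI they hold 16 of 503 called higher and 197 of 199 called lower. The tested spots of the members lay between row 15 (Ass1) and row 519 (Asl). The part of position in these shares was not tested. The mice of both genotypes overlapped for every one of the genes, whereas they did not overlap for 7.50% of all genes between TAKI and WT, 3.94% between TEKI and WT and 8.29% between TEKI and TAKI. In bulk liver, fewer hepatocytes and less of an RNA per hepatocyte cannot be told apart.

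**Figure D1:**
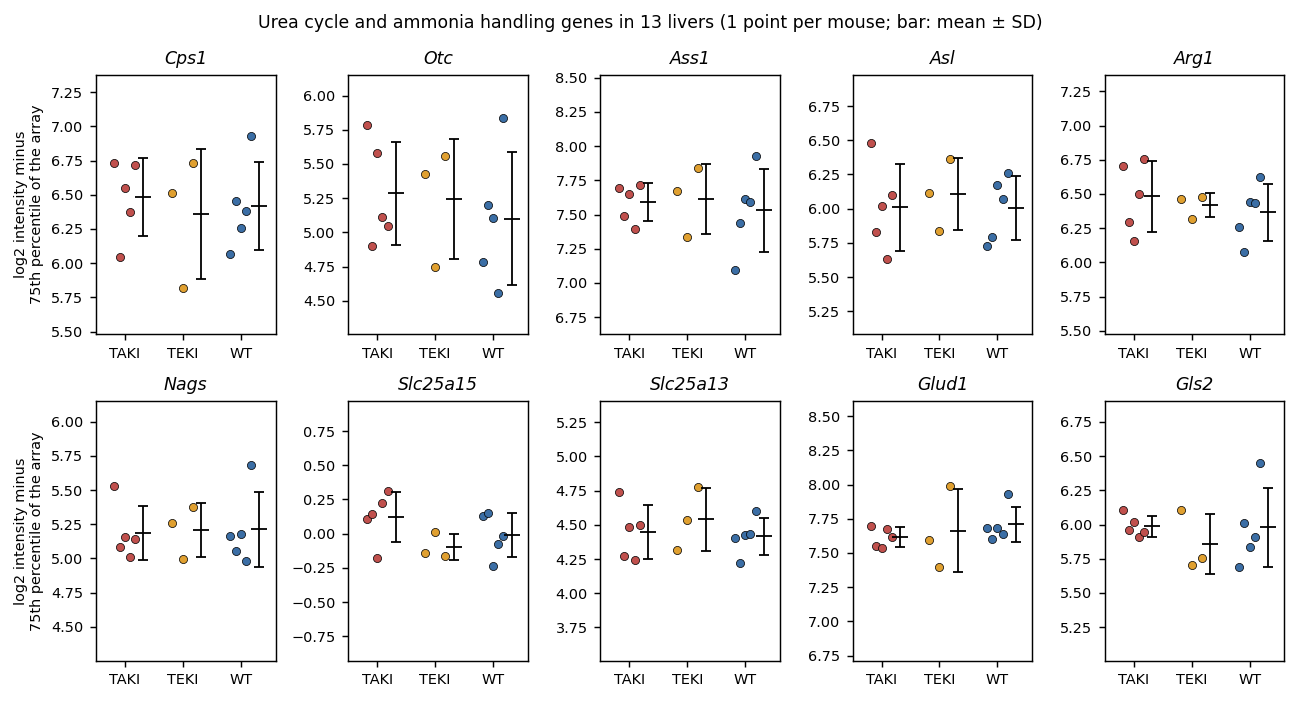
Level of each gene (log2 intensity minus the 75th percentile of the array, same span in every panel) in 5 TAKI, 3 TEKI and 5 WT livers, 1 point per mouse, with the mean ± SD beside it. The points of the genotypes overlap in all 10 panels, and Otc has the widest spread.

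Cps1 encodes carbamoyl phosphate synthetase, the mitochondrial enzyme that commits ammonia to the cycle. Its log2 levels were 6.73, 6.04, 6.55, 6.37 and 6.72 in TAKI livers, 6.52, 5.82 and 6.73 in TEKI livers, and 6.06, 6.45, 6.26, 6.38 and 6.93 in WT livers. The highest liver was a WT and the lowest a TEKI, and the other 2 TEKI livers lay in the upper part of the WT range. The means were 6.48 ± 0.29 in TAKI, 6.36 ± 0.48 in TEKI and 6.42 ± 0.32 in WT (SD). TAKI minus WT was 0.07 on the log2 scale (SE 0.21, adjusted p = 0.933), and TEKI minus WT was -0.06 (SE 0.24, adjusted p = 0.956). As a ratio to WT this is 1.05-fold in TAKI, with a 95% interval of 0.762 to 1.44.

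Nags makes N-acetylglutamate, the compound without which CPS1 is inactive. Levels were 5.53, 5.09, 5.15, 5.01 and 5.15 in TAKI, 5.26, 4.99 and 5.38 in TEKI, and 5.17, 5.05, 5.18, 4.98 and 5.68 in WT. In both TAKI and WT 4 mice lay close together and 1 mouse, TAKI replicate 1 and WT replicate 5, stood above them. The difference was -0.03 for TAKI minus WT (SE 0.15, adjusted p = 0.961) and -0.0029 for TEKI minus WT (SE 0.17, adjusted p = 0.998). A dimmer probe further upstream in the gene gave -0.19 for TAKI minus WT (SE 0.18) and 0.09 for TEKI minus WT (SE 0.21), and followed the first over the livers (r = 0.86, rho = 0.82, n = 13).

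Otc encodes ornithine transcarbamylase, which joins carbamoyl phosphate to ornithine inside the mitochondrion. Its brightest probe read 5.79, 4.90, 5.58, 5.12 and 5.05 in TAKI, 5.43, 4.74 and 5.56 in TEKI, and 4.79, 5.20, 5.11, 4.56 and 5.84 in WT. The lowest and the highest of the 13 livers were both WT, 2.43-fold apart, and all TAKI and TEKI livers lay between them. TAKI minus WT was 0.19 (SE 0.26, adjusted p = 0.817) and TEKI minus WT was 0.15 (SE 0.30, adjusted p = 0.90). The 95% interval of the ratio to WT ran from 0.768 to 1.69 in TAKI and from 0.702 to 1.74 in TEKI, the widest among the 10 genes.
The intron-crossing Otc probe printed above followed the brightest one closely (r = 0.96, rho = 0.95, n = 13) and gave 0.31 for TAKI minus WT (SE 0.23) and 0.26 for TEKI minus WT (SE 0.26). Another Otc probe, a dim one, which lies between the other Otc probes in the genome, followed them less closely (r = 0.82 and 0.84) and gave 0.28 and 0.30. All 3 probes had their mean higher in both knock-ins than in WT, and none passed the test when every probe was tested alone (0 of 14 member probes in each comparison, beside 2.25% of 29931 probes for TAKI minus WT, 0.00334% for TEKI minus WT and 2.88% for TEKI minus TAKI).

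Ass1, argininosuccinate synthetase, and Asl, argininosuccinate lyase, act in turn in the cytosol and also serve arginine synthesis. The first Ass1 probe printed above read 7.70, 7.49, 7.65, 7.40 and 7.71 in TAKI, 7.67, 7.34 and 7.84 in TEKI, and 7.09, 7.44, 7.61, 7.59 and 7.93 in WT. TAKI lay inside the WT range, and its mean was 0.06 above WT (SE 0.15, adjusted p = 0.919). TEKI minus WT was 0.08 (SE 0.18, adjusted p = 0.904). The overlapping second probe gave 0.07 and 0.06 for the same differences and followed the first with r = 0.96 and rho = 0.94 over 13 arrays.
Asl read 6.48, 5.83, 6.02, 5.63 and 6.10 in TAKI, 6.12, 5.84 and 6.36 in TEKI, and 5.73, 5.79, 6.17, 6.07 and 6.26 in WT. The lowest and the highest liver were both TAKI. The difference was 0.0069 for TAKI minus WT (SE 0.17, adjusted p = 0.993) and 0.10 for TEKI minus WT (SE 0.20, adjusted p = 0.894).

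Arg1, liver arginase, splits arginine into urea and ornithine. Its levels were 6.71, 6.30, 6.16, 6.50 and 6.76 in TAKI, 6.46, 6.32 and 6.48 in TEKI, and 6.26, 6.07, 6.44, 6.43 and 6.62 in WT. TEKI livers were close together, inside the range of both other genotypes. The means differed from WT by 0.12 in TAKI (SE 0.14, adjusted p = 0.776) and by 0.05 in TEKI (SE 0.16, adjusted p = 0.937).

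Slc25a15 and Slc25a13 are the mitochondrial carriers of the cycle: the first exchanges ornithine for citrulline, and the second, citrin, exports aspartate for the ASS1 reaction. Slc25a15 read 0.11, 0.15, -0.18, 0.22 and 0.31 in TAKI, -0.14, 0.01 and -0.16 in TEKI, and 0.13, 0.15, -0.24, -0.08 and -0.02 in WT. In TAKI 4 of 5 mice were above all TEKI mice and 1 was below them. TEKI minus TAKI was -0.22 (SE 0.13, unadjusted p = 0.113, adjusted p = 0.555), the smallest p among the 10 genes in any comparison, with a 95% interval of the ratio from 0.708 to 1.04. TAKI minus WT was 0.13 (SE 0.11, adjusted p = 0.666) and TEKI minus WT -0.09 (SE 0.13, adjusted p = 0.850). Slc25a13 ranged from 4.24 to 4.74 in TAKI, from 4.32 to 4.77 in TEKI and from 4.22 to 4.60 in WT. Its differences were 0.03 for TAKI minus WT (SE 0.12, adjusted p = 0.945) and 0.13 for TEKI minus WT (SE 0.14, adjusted p = 0.783).

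Glud1, glutamate dehydrogenase, and Gls2, the liver glutaminase, release ammonia inside the mitochondrion. Glud1 was the member with the narrowest TAKI group, at 7.70, 7.55, 7.53, 7.68 and 7.62, against 7.59, 7.40 and 7.99 in TEKI and 7.68, 7.60, 7.68, 7.64 and 7.93 in WT. The TEKI livers held both the lowest and the highest value. The TAKI mean differed from WT by -0.09 (SE 0.11, adjusted p = 0.782), with a 95% interval of the ratio from 0.790 to 1.11. TEKI minus WT was -0.05 (SE 0.13, adjusted p = 0.934).
Gls2 read 6.11, 5.96, 6.02, 5.91 and 5.95 in TAKI, 6.11, 5.71 and 5.76 in TEKI, and 5.69, 6.02, 5.84, 5.91 and 6.45 in WT. WT replicate 5 was the highest liver, and 2 of 3 TEKI livers were at the low end of the WT range. TEKI minus WT was -0.12 (SE 0.16, adjusted p = 0.822) and TAKI minus WT 0.0070 (SE 0.14, adjusted p = 0.991).

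Over the 10 genes, TAKI minus WT had a median of 0.04 (from -0.09 to 0.19), with 8 above 0, beside a median of 0.0021 over all genes. TEKI minus WT had a median of 0.03 (from -0.12 to 0.15), with 5 above 0, beside 0.07 over all genes. TEKI minus TAKI had a median of -0.0089 (from -0.22 to 0.09), with 5 above 0, beside 0.06 over all genes. These signs follow the scaling: with arrays scaled on their own median the medians of the 10 genes were -0.11, -0.40 and -0.29, and those of all genes -0.15, -0.36 and -0.21, for the 3 comparisons in the same order, and 0 of 10 were called there too. Across the 10 genes the 95% intervals of the ratio stayed within 0.762 to 1.69 for TAKI over WT, 0.664 to 1.74 for TEKI over WT and 0.616 to 1.53 for TEKI over TAKI. Otc set the upper end in each comparison and Cps1 or Otc the lower.

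**Figure D2:**
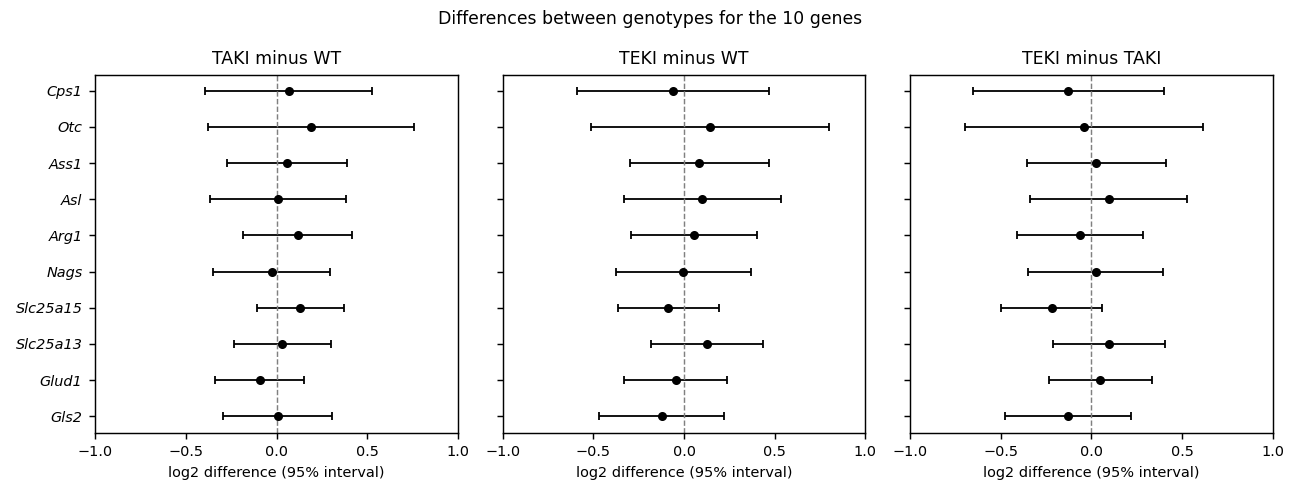
Difference between genotypes for each gene on the log2 scale, with its 95% interval from limma; the dashed line is 0. All 30 intervals cross 0, and those of Otc and Cps1 are the widest.

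Mice of 1 genotype differed among themselves, most for Otc and Cps1. The pooled SD within genotypes was 0.44 for Otc and 0.35 for Cps1, above those of 81.7% and 72.3% of 15485 genes above background on 13 of 13 arrays. It was 0.28 for Asl, 0.24 for Ass1, 0.23 for Nags and 0.21 for both Arg1 and Gls2, beside a median of 0.22 over those genes. Slc25a13 at 0.18, Glud1 at 0.16 and Slc25a15 at 0.16 varied least. From the lowest to the highest of the 13 livers, Cps1 spanned 2.16-fold, Asl 1.80-fold, Ass1 1.78-fold and Slc25a15 1.46-fold.

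The genes varied together from liver to liver. WT replicate 5 was the highest liver for Cps1, Otc, Ass1, Nags and Gls2, TEKI replicate 3 for Slc25a13 and Glud1, TAKI replicate 1 for Asl and TAKI replicate 5 for Arg1 and Slc25a15. TEKI replicate 2 was the lowest for Cps1 and Glud1, and WT replicate 1 for Ass1 and Gls2. The mean of the 10 genes, each standardised over the livers, was 1.07, -0.53, -0.15, -0.35 and 0.44 SD in TAKI, 0.06, -0.88 and 0.73 in TEKI, and -0.73, -0.46, -0.22, -0.35 and 1.36 in WT. Each genotype thus held at least 1 liver at 0.73 SD or higher and at least 1 below the overall mean.

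**Figure D3:**
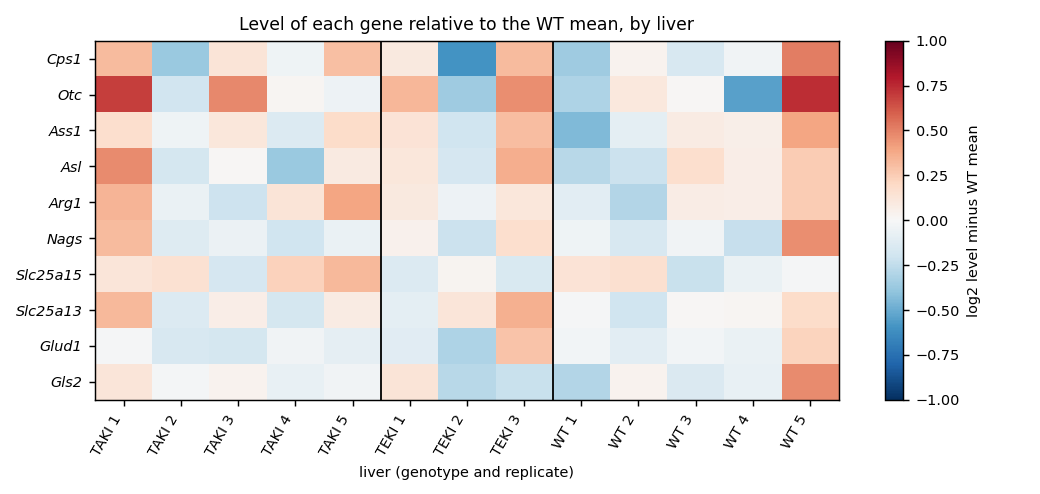
Log2 level of each gene minus its WT mean (colour, from -1 to 1) in 5 TAKI, 3 TEKI and 5 WT livers, in columns. TAKI 1, TEKI 3 and WT 5 are red for most genes, TEKI 2 and WT 1 are blue for most, and the row of Slc25a15 has a pattern of its own.

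Pairwise correlations over the 13 livers are given as a description, since the arrays share their scaling and the genes share the livers. Among the 45 pairs the median Pearson r was 0.55, 37 pairs were above 0 and 28 (62.2%) above 0.5. Over all pairs of the 13205 other genes above background and unsaturated on all 13 arrays, the median r was 0.006, and 10.2% of pairs were above 0.5. The median of the 45 pairs was 0.57 after each genotype's mean was taken out and 0.56 without TEKI replicate 1, and it moved with the scaling: 0.34 with quantile normalization, 0.79 with median scaling and 0.64 with no scaling.

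The 5 closest pairs took in mitochondrial and cytosolic steps alike. Otc and Nags had r = 0.83 and rho = 0.76, and r = 0.70 without the 2 livers farthest from the median. Cps1 and Ass1 had r = 0.83 and rho = 0.89 (r = 0.77 without 2 livers). Ass1 and Asl had r = 0.82 and rho = 0.86 (0.86 without 2 livers), Asl and Slc25a13 r = 0.80 and rho = 0.76 (0.68), and Cps1 and Otc r = 0.78 and rho = 0.80 (0.68). For each of these 5 pairs r stayed at or above 0.56 with quantile normalization. The ornithine carrier Slc25a15 stood apart: all 8 pairs with r below 0 included it, down to -0.44 with Asl (rho = -0.53), and these turned positive with median scaling, where Slc25a15 with Asl was 0.51.

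**Figure D4:**
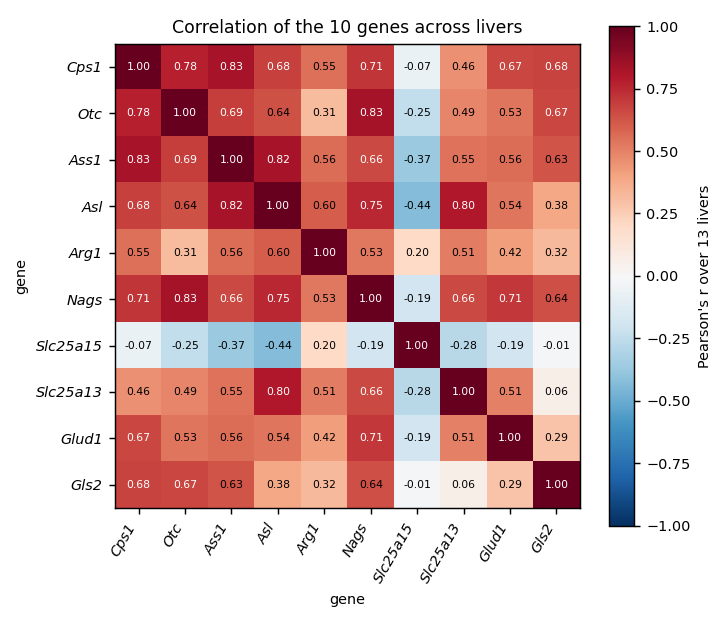
Pearson's r between each pair of genes over 13 livers, with the value in each cell and the same value as colour. Apart from the row and column of Slc25a15, where r runs from -0.44 to 0.20, all pairs are above 0.

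The 5 genes outside the set that followed its mean standardised level most closely, among 13205 genes, were Psmc5 (r = 0.97), Cyp4f14 (0.94), Sdc2 (0.93), Slc22a30 (0.93) and Paics (0.92), each over 13 livers. Of all genes searched, 17.8% had r above 0.5 and 14 genes had r above 0.9. The mean level of the amino acid catabolism list (19 genes, among them Tat, Hpd and Fah, which break down tyrosine) followed the same mean with r = 0.91 and rho = 0.88, and r = 0.88 without TAKI replicates 1 and 2. It was 0.86 with quantile normalization and 0.97 with median scaling. Among the 14 described regulators, whose mean level had r = 0.58, Hnf4a had r = 0.87 and Sirt1 had r = 0.74. Hnf4a is a nuclear receptor of hepatocyte genes that is also in the hepatocyte marker list. Sirt5 (r = -0.64) and Ppargc1a (r = -0.44) were the only regulators of the list below 0. All regulators named here were chosen after their values were seen. Sirt1 differed by -0.01 for TAKI minus WT (SE 0.13, adjusted p = 0.984) and by -0.09 for TEKI minus WT (SE 0.15, adjusted p = 0.878).

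Marker lists of cell types followed these levels to different degrees. The stellate cell and fibroblast list, 10 of 10 markers well above background on every array, ran opposite to the urea cycle genes (r = -0.82, rho = -0.68, and r = -0.71 without TAKI replicate 1 and TEKI replicate 3). Its summed linear level was 82.3 to 145 in TAKI, 86.7 to 135 in TEKI and 97.5 to 148 in WT. The relation was -0.84 within genotypes, -0.69 with quantile normalization and 0.45 with median scaling, so its direction flips with the scaling. The macrophage and Kupffer cell list had r = -0.59 and rho = -0.48 (r = -0.40 without the same 2 livers, -0.43 with quantile normalization and -0.03 with median scaling), with a summed level of 151 to 347 in TAKI, 107 to 277 in TEKI and 168 to 325 in WT. The hepatocyte markers, which include the partly saturated Alb, Ahsg, Apoa2 and Fgb, had r = 0.66 and rho = 0.50, and r = 0.35 without TEKI replicate 3 and WT replicate 5. Their r was 0.75 within genotypes, 0.72 with quantile normalization and 0.91 with median scaling. The erythroid list, 3 of whose 6 markers were tested, had r = 0.75 and rho = 0.80 (r = 0.70 without TEKI replicate 2 and WT replicate 2), 0.58 with quantile normalization and 0.72 with median scaling, with a summed level of 68.1 to 125 in TAKI, 74.5 to 129 in TEKI and 61.4 to 149 in WT. The periportal list had r = -0.33 and the pericentral list 0.32, and with median scaling both were positive, at 0.75 and 0.82. The r was -0.41 for cholangiocyte, -0.31 for endothelial and -0.01 for pancreatic acinar markers. The part of any of these cells in the differences between livers was not tested. The 75th percentile intensity of the array had r = -0.41 with the mean of the 10 genes, and the share of spots above background had r = 0.02.

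**Figure D5:**
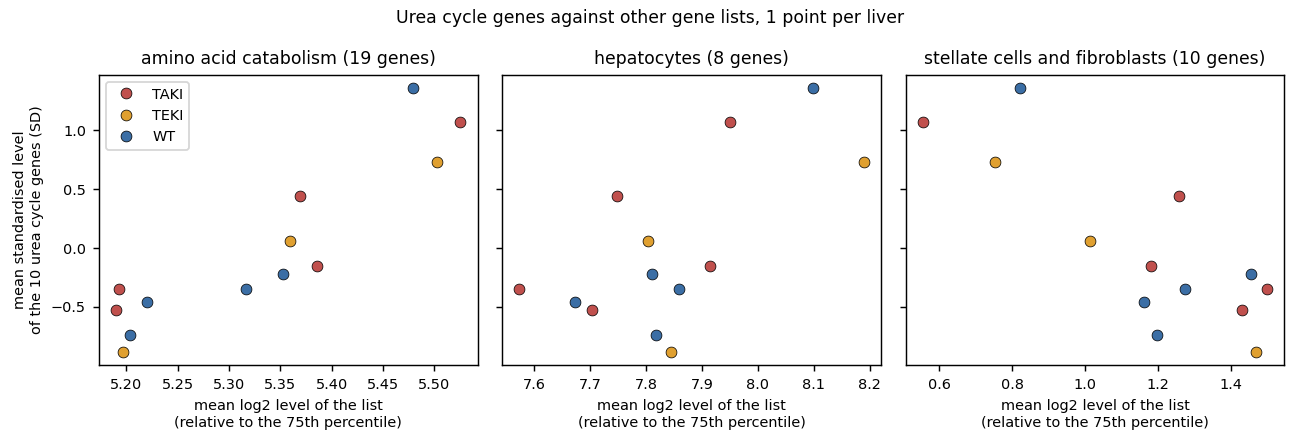
Mean standardised level of the 10 genes (SD) against the mean log2 level of 3 lists, 1 point per liver, coloured by genotype. The livers with the highest urea cycle levels have high amino acid catabolism levels (r = 0.91) and low stellate cell and fibroblast levels (r = -0.82).

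The other genes of ammonia and glutamine handling were mostly not called either. In a list of 26 transporters and enzymes around the cycle, 1 was called higher and 0 lower for TAKI minus WT, 0 for TEKI minus WT, and 0 higher and 1 lower for TEKI minus TAKI. Of all genes, 2.82%, 0.00490% and 3.44% were called in these comparisons. A call of 1 among 26 is close to the share of all genes in both comparisons with TAKI. The medians of the 26 genes were 0.10, 0.16 and 0.07, beside 0.0021, 0.07 and 0.06 over all genes. The gene called was the same one, Slc25a18, a mitochondrial glutamate carrier. It read -4.18, -4.06, -3.86, -4.19 and -4.40 in TAKI, -4.60, -5.52 and -5.43 in TEKI, and -4.74, -5.17, -5.64, -4.66 and -5.37 in WT, so the TAKI livers were above all others. Of all genes, 7.50% did not overlap between TAKI and WT and 8.29% between TEKI and TAKI. For Slc25a18, TAKI minus WT was 0.98 (SE 0.22, adjusted p = 0.0391) and TEKI minus TAKI -1.05 (SE 0.26, adjusted p = 0.0476). The probe is dim, well above background in 5 of 5 TAKI, 1 of 3 TEKI and 3 of 5 WT livers, and it passed in 13 of 27 other settings for TAKI minus WT and 9 of 27 for TEKI minus TAKI. With normexp background correction and the 75th percentile the difference was 0.02 for TAKI minus WT (adjusted p = 0.961) and 0.07 for TEKI minus TAKI. The spot also lies in row 134 of 532. Rows 1 to 266 hold 97.7% of the genes called higher in TAKI than in WT, against 50.8% of all genes. They also hold 99.0% of the genes called lower for TEKI minus TAKI, which rests on the same TAKI mice. The part of the position on the array in both calls was not tested.

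Glutamine synthetase, Glul, takes up the ammonia that the cycle leaves, in the hepatocytes around the central vein. It read 6.27, 6.23, 6.27, 5.93 and 5.92 in TAKI, 6.31, 6.52 and 6.80 in TEKI, and 6.60, 6.59, 6.41, 6.38 and 6.28 in WT. All TAKI livers were below all WT and all TEKI livers, as also happens in 7.50% and 8.29% of all genes. The difference was -0.33 for TAKI minus WT (SE 0.12, unadjusted p = 0.0197, adjusted p = 0.214) and 0.42 for TEKI minus TAKI (SE 0.14, unadjusted p = 0.0116, adjusted p = 0.191), and neither passed the threshold. For TAKI minus WT Glul passed in 1 of 28 other settings, with array weights (adjusted p = 0.0397). Rhbg, an ammonia channel of the same hepatocytes, was 0.81 for TEKI minus WT (SE 0.31, unadjusted p = 0.0237, adjusted p = 0.392), with levels of 2.59, 2.35 and 2.81 in TEKI and between 1.11 and 2.46 in WT, where 1 of 5 mice was inside the TEKI range. The arginine transporter Slc7a1 was 1.11 for TAKI minus WT (adjusted p = 0.0824) and 0.72 for TEKI minus WT (adjusted p = 0.447). Its TAKI minus WT difference ran from 0.218 to 1.33 over 28 other settings and passed in 5 of them (adjusted p from 0.0126 to 0.565). The glutamine transporter Slc38a5 was -0.90 for TAKI minus WT (adjusted p = 0.205) and 1.44 for TEKI minus TAKI (adjusted p = 0.0699), on a dim probe above background on 5 arrays. It passed in 2 of 27 other settings for TAKI minus WT (adjusted p from 0.027 to 0.572) and in 3 of 27 for TEKI minus TAKI (from 0.00562 to 0.391). The Slc7a1 spot lies in row 168, within rows 1 to 266, where most genes called higher in TAKI than in WT lie. The Slc38a5 spot lies in row 391, outside those rows, which hold 5 of the 192 genes called lower in TAKI than in WT. They hold 16 of the 503 genes called higher for TEKI minus TAKI. The Glul spot, in row 135, goes the other way, since Glul was lower in TAKI. The part of the position on the array in these differences was not tested. The second ornithine carrier Slc25a2 was 0.59 for TEKI minus WT (adjusted p = 0.505).

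In the list of arginine and polyamine neighbours 0 of 11 tested genes were called in any comparison. The shares of all genes called were 2.82% for TAKI minus WT, 0.00490% for TEKI minus WT and 3.44% for TEKI minus TAKI. In this list Gamt, which makes creatine from an arginine product, had the smallest p, with a mean of 6.20 ± 0.23 in TEKI and 5.73 ± 0.26 in WT (SD) and a difference of 0.47 (SE 0.16, adjusted p = 0.391). Srm, spermidine synthase, was -0.21 for TAKI minus WT (adjusted p = 0.556), and Odc1, ornithine decarboxylase, was -0.10 for TAKI minus WT and -0.22 for TEKI minus WT (adjusted p = 0.734 and 0.473). Ddah1, which clears methylated arginine, was 0.13 for TAKI minus WT (adjusted p = 0.728), and Nos3, the endothelial nitric oxide synthase, was 0.23 for TEKI minus WT (adjusted p = 0.467).

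Of the 14 described regulators of urea cycle genes 0 were called in any comparison. The shares of all genes called were 2.82% for TAKI minus WT, 0.00490% for TEKI minus WT and 3.44% for TEKI minus TAKI. For TAKI minus WT 11 of the 14 regulators were below 0, with a median of -0.11. The liver transcription factor Cebpa was at -0.24 (SE 0.10, adjusted p = 0.318), and the glucagon receptor Gcgr at -0.27 (SE 0.13, adjusted p = 0.386). For TEKI minus WT the glucocorticoid receptor Nr3c1 was -0.23 (adjusted p = 0.473), the mitochondrial deacetylase Sirt3 0.21 (adjusted p = 0.625) and Creb1, which answers cyclic AMP, -0.13 (adjusted p = 0.662). Sirt3 was 0.34 for TEKI minus TAKI (SE 0.15, adjusted p = 0.402). In amino acid catabolism 0 of 19 were called, with medians of 0.02 for TAKI minus WT, 0.06 for TEKI minus WT and 0.07 for TEKI minus TAKI. The smallest p-values there were those of Tdo2, which opens the ring of tryptophan, at 0.32 for TAKI minus WT (adjusted p = 0.545), of Bhmt, which remethylates homocysteine, at 0.33 for TEKI minus WT (adjusted p = 0.517), and of Mat1a, which makes S-adenosylmethionine, at 0.29 for TEKI minus TAKI (adjusted p = 0.565).

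The markers of where in the lobule hepatocytes sit were not called either. In the periportal list, where the urea cycle is most active, 0 of 10 passed in any comparison, with medians of 0.08 for TAKI minus WT, -0.03 for TEKI minus WT and -0.13 for TEKI minus TAKI. In the pericentral list 0 of 12 passed, with medians of -0.12, 0.15 and 0.24 for the same comparisons. Among the markers of macrophages, endothelium, stellate cells, cholangiocytes and erythroid cells 0 were called in any comparison, while 1 of 7 pancreatic acinar genes, Cpb1, was called higher in TAKI than in WT, on a spot in rows 1 to 266 (named after its value was seen). Of all genes, 2.82% were called for TAKI minus WT, 0.00490% for TEKI minus WT and 3.44% for TEKI minus TAKI, so few calls can come from lists this short.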

How the data were processed

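Liver RNA of 13 mice was read on 1-colour Agilent whole-mouse-genome arrays, from 500 ng of RNA, per the labels. The deposited scanner files (Agilent Feature Extraction 9.5, per the submitters' processing notes) hold each spot's processed intensity, a linear value from which the software had subtracted background, per the file headers. A deposited table repeats this intensity (largest difference 0) without centring or between-array scaling; medians of its columns ran from 49.1 to 137, and direction does not apply. The hour and order of tissue collection are not given in the sources used here.

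Spots marked as outliers were left out, spots of a probe were averaged on log2, and the 75th percentile of the array was subtracted. The brightest probe per gene was tested if well above background on at least 3 arrays. Limma 3.58.1 in R 4.3.3 fitted the 3 genotypes together (10 residual degrees of freedom), with Benjamini-Hochberg adjustment over 20403 genes and a threshold of 0.05; the steps were tested on simulated data. Of 41174 probes, 22951 were named by accession, 6659 by symbol and 3109 by synonym with a RefSeq table, and 8455 kept the file's name. The number of arrays limits the precision. The members and lists were chosen with earlier results of these data known. Named are all members, in each pathway list genes past the threshold or among the 3 of smallest p (of these, the ones in the text), and the 5 genes most like the members' mean; others were named after their values were seen. Alternatives were scaling, background correction, source, filter, probe choice, spread model, slide, replicate block and leaving out each array. Some list genes, and the lymphocyte markers, are not reported here.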

Additional observations from a re-analysis of the deposited data

Results flagged for a closer look

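Of 28 sets of 5 mice examined (14 probes in TAKI and in WT), 4 held a mouse far from the other 4. Chance alone gives about 1 in 20 for a set taken by itself. The sets share mice, and some share a gene, so their count cannot be judged against that rate. Nags was 5.53 in TAKI replicate 1, against 5.15 in the nearest TAKI mouse. Nags was 5.68 in WT replicate 5, against 5.18 in the nearest WT mouse, and Glud1 was 7.93 in the same mouse, against 7.68. The dim Otc probe was -2.89 in TAKI replicate 2, against -2.48 in the nearest TAKI mouse, while the brighter Otc probes placed that mouse lowest in TAKI with a smaller gap.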

How the results depend on the processing

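No member was called in any of 28 settings for TAKI minus WT, 30 for TEKI minus WT or 28 for TEKI minus TAKI, and the smallest adjusted p was 0.285, 0.305 and 0.319. An unadjusted p under 0.05 occurred for 3 values: Gls2, TEKI minus WT, at -0.552 with median scaling (adjusted p = 0.305) and at -0.596 with slide as a fixed block (0.941), and Slc25a15, TEKI minus TAKI, at -0.294 without TAKI replicate 3 (0.366). The sign of a member's difference turned in 27 of 280 values for TAKI minus WT, 33 of 300 for TEKI minus WT and 34 of 280 for TEKI minus TAKI; none was called on either side. The median over the members moved by more than the spread between mice (0.186) in 6 cases. For TAKI minus WT it was 0.260 from the deposited table without scaling, where the median of all genes was 0.219. For TEKI minus TAKI it was -0.286 with median scaling and -0.279 from the deposited table. For TEKI minus WT it was -0.402 with median scaling, and -0.290 with slide as a fixed block and within slide 3, both of which rest on WT replicate 5 alone. The cause was not tested. Slc25a18, TEKI minus TAKI, turned to 0.0663 with normexp and the 75th percentile. Running the listed settings on the genes of the pathway lists outside the members was decided after the data were seen. Besides Slc25a18, Slc7a1, Slc38a5 and Glul, 1 other setting each called Aldh18a1, Arg2, Nos1, Slc25a2 and Prodh for TEKI minus TAKI. For Prodh (adjusted p = 0.0459) it was the replicate block. For the rest (adjusted p from 0.0134 to 0.0493) it was normexp with the 75th percentile, where 20.7% of all genes were called. Over all genes the count called ran to 2196 for TAKI minus WT with array weights (576 as reported) and to 4223 for TEKI minus TAKI with normexp and the 75th percentile (702). Replicate numbers are shared by the genotypes and were not taken to pair the mice. Deviations of same-numbered mice correlated at -0.232 to 0.323 (median 0.0976, 11 pairs). Those of differently numbered mice correlated at -0.436 to 0.435 (median -0.0243, 44 pairs). With the replicate block 0 members were called, and 344, 1 and 599 genes in all for the 3 comparisons.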
